A study of Mus musculus with 6 samples.

Results

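The genes described here are the mouse zinc finger genes that carry a Zfp symbol with a 3-digit number beginning with 5 to 9 and are typed as protein-coding. They were chosen by name, and 178 of the 17524 genes in the table met the rule. The family was put forward with results of the NTG and vehicle comparison in view, so its fold changes are given as a description and support nothing by themselves. The libraries were made from trigeminal ganglion, the cluster of sensory neurons that serves the face and the coverings of the brain. All 6 came from wild-type (WT) mice, 3 labelled vehicle and 3 labelled NTG, a common abbreviation of nitroglycerin, which is used to provoke migraine-like states in rodents. The labels give no strain, age, dose or time, and none says whether a replicate is an animal of its own, so the spread behind each p-value may be only technical.

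Most genes of this name encode C2H2 zinc finger proteins, in which a pair of cysteines and a pair of histidines hold a zinc ion and each finger can read a short stretch of DNA. Many of them also carry a KRAB (Krüppel-associated box) domain, which binds the co-repressor TRIM28 (KAP1); TRIM28 in turn brings in the histone methyltransferase SETDB1 and heterochromatin protein 1. KRAB zinc finger genes have multiplied in clusters by local duplication and are best known for silencing endogenous retroviruses. Family members without KRAB act in other ways, in transcription, ribosome quality control or RNA binding.

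A KRAB-like stretch was found by a pattern search in the translated coding sequence of 106 members and was not found in 70, while 2 members could not be translated (Zfp939 and Zfp660). The stretch that separates these classes is shown as coding sequence, 5′ to 3′, for 3 of the members with the largest rises and for Zfp688, 1 of the 2 KRAB members that fell. The sequences are from GENCODE M21 on GRCm38, and the capitals mark the codons at the start of the box that the pattern had to match.
Zfp953: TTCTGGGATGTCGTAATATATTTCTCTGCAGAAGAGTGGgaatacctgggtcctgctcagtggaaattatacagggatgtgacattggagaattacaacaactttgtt
Zfp850: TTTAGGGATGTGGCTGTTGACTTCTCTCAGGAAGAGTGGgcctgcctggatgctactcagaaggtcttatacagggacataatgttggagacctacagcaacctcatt
Zfp709: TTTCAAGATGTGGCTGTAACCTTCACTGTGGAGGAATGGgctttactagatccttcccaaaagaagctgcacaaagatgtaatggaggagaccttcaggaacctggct
Zfp688: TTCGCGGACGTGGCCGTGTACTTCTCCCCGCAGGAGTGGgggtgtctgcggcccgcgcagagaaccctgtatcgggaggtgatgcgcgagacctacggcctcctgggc
Between Zfp953 and Zfp850, 68.5% of the 108 bases were identical. Zfp688 matched Zfp850 at 61.1% of positions. The stretch from Zfp688 was the richest in G and C, at 68.5%, against 40.7% in Zfp953, 48.1% in Zfp850 and 46.3% in Zfp709.

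The zinc finger is the part that all of these proteins are named for, and the same contrast in base composition was visible there. The first finger that matched a pattern for a finger and its linker is shown, with the 4 zinc-binding codons in capitals. It is given for the same 3 members that rose and for 3 that fell (Zfp771, Zfp787 and Zfp692). Zfp579, Zfp580, Zfp503 and Zfp523, also among the largest falls, had no match to that pattern and are not shown.
Zfp953: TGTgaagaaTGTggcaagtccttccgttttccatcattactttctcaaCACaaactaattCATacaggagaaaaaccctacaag
Zfp850: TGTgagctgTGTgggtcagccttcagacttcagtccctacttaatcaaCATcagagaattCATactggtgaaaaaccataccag
Zfp709: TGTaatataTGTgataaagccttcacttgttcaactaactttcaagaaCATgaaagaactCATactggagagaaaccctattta
Zfp771: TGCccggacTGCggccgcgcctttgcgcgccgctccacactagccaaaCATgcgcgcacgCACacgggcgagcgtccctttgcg
Zfp787: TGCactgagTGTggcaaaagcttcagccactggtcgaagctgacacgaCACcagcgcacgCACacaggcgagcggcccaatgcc
Zfp692: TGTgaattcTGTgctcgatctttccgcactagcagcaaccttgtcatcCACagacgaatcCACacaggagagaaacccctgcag
These stretches held 38.1%, 44.0% and 32.1% G and C in Zfp953, Zfp850 and Zfp709, and 71.4%, 61.9% and 51.2% in Zfp771, Zfp787 and Zfp692. Over the whole coding sequence the median was 41.9% in the 106 members with KRAB and 57.8% in the 70 without. At the third codon position, where most changes leave the amino acid as it is, the medians were 37.9% and 62.3%.

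Total reads recovered per library ranged from 18813027 to 23774244, and the first principal component, which held 36.5% of the variance, separated the groups. The libraries also differed in how gene level depended on base composition. Per 10 percentage points of transcript GC content, the deviation from a gene's mean level had a log2 slope of 0.11 to 0.19 in vehicle libraries and -0.21 to -0.08 in NTG libraries, so low-GC transcripts stood higher in all 3 NTG libraries. That difference runs with the groups, and its part in the results below was not tested beyond the corrected values given beside them. The tissue label was checked against marker lists, and each of the 9 sensory neuron, 5 satellite glia and 5 Schwann cell markers was detected. The summed normalised reads of the neuron markers were 213122 to 218661 in vehicle and 196999 to 204665 in NTG, with 1 of 9 risen and 3 fallen (2 and 2 after the GC and length correction described below). Satellite glia markers summed to 104334 to 108637 in vehicle and 93692 to 98121 in NTG, with 1 of 5 risen and 2 fallen (0 and 1 after that correction). Schwann cell markers summed to 276215 to 301743 in vehicle and 260112 to 283359.8 in NTG, with 1 of 5 risen and 3 fallen (0 and 0 after that correction). Over all genes tested, 12.3% rose and 13.5% fell, and 3.89% and 5.54% did so after correction. Skeletal muscle markers were low, and 5 of 5 fell (4 after correction), with sums of 117 to 268 in vehicle and 39.9 to 49.1 in NTG. None of the muscle markers was at 0. The part of these cell types in the family's values was not tested, and in bulk tissue fewer cells of a type and less RNA per cell cannot be told apart.

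Within the family, most calls among KRAB members were rises and most among members without KRAB were falls, and most members were not called. Of 178 members, 51 rose (28.7%) and 16 fell (8.99%) at an adjusted p under 0.05 (limma with Benjamini-Hochberg adjustment over 17475 genes), where 12.3% of all genes tested rose and 13.5% fell (25.8% in either direction). In edgeR on the recovered reads the members' counts were 49 and 16, where 12.7% and 13.3% of all genes rose and fell. The median log2 fold change was 0.26 over the members and 0.00 over all genes. All 178 members passed the filter on low values. With a fold of more than 1.2 required, 7 members rose (Zfp638, Zfp738, Zfp850, Zfp871, Zfp933, Zfp970 and Zfp971), where 0.441% of all genes rose, and none fell in limma (5 at an unadjusted p under 0.05), where 1.35% of all genes fell. Since the family was chosen with this contrast in view, nothing is read from these shares.

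The KRAB-like stretch was not used to choose the genes. Among the 106 members with it, 48 rose and 2 fell (Zfp688 and Zfp777), and 96 had a fold change above 0. In limma the adjusted p of Zfp777 was 0.0742 without vehicle replicate 2. It was 0.0608, 0.0893 and 0.0525 without NTG replicates 1, 2 and 3. Without NTG replicate 2 the number of risen members was 26 with KRAB and 28 in all, and without NTG replicate 1 it was 29 and 31. Among the 70 without it, 3 rose (Zfp638, Zfp644 and Zfp759) and 14 fell, with 29 above 0. The median log2 fold change was 0.46 with KRAB and -0.06 without. This split depends on the search pattern: a stricter one kept 23 members as KRAB, of which 11 rose, and among the 153 others 40 rose and the median turned to 0.19. Summed over members, the KRAB class reached 760, 752 and 783 CPM (counts scaled to equal library totals) in the vehicle libraries and 1045, 1021 and 976 in the NTG libraries. Every NTG library was above every vehicle library in that sum. The members without KRAB summed to 1951, 2051 and 2069 CPM in vehicle and 1944, 1891 and 1944 in NTG, so the NTG libraries lay below all vehicle libraries by a small margin. The median KRAB member was the lower expressed, at 134 normalised reads against 391 without KRAB, and carried more fingers, 11.5 against 7.

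**Figure D1:**
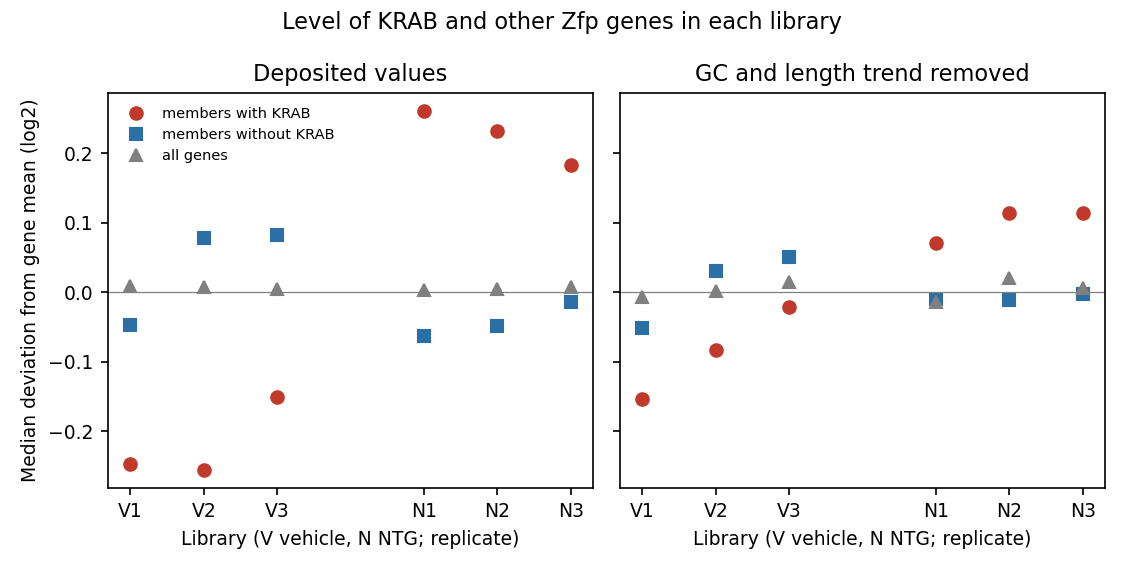
Median over genes of the deviation from each gene's mean level (log2) in each library (V vehicle, N NTG) for members with KRAB, members without KRAB and all genes, from the deposited values (left) and after a trend over GC content and transcript length was removed in each library (right). KRAB members lie between -0.26 and -0.15 in vehicle and between 0.18 and 0.26 in NTG on the left, and between -0.15 and -0.02 and between 0.07 and 0.11 on the right.

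In single libraries, the median KRAB member deviated from its mean level by -0.25, -0.26 and -0.15 on the log2 scale in vehicle and by 0.26, 0.23 and 0.18 in NTG. After each library's trend over GC content and length was removed, the deviations were -0.15, -0.08 and -0.02 in vehicle and 0.07, 0.11 and 0.11 in NTG. The order of the groups was kept in every library, with less than the former distance between them. Members without KRAB lay between -0.06 and 0.08 in all libraries before the correction.

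Transcript GC content ordered the family. The 49 members under 40% GC had a median log2 fold change of 0.51 and 25 of them rose. For the 43 members between 40% and 45% the median was 0.45, with 23 risen. It was 0.24 in the 23 members between 45% and 50%, with 3 risen, and -0.06 in the 29 between 50% and 55%, with 2 fallen. In the 33 members at 55% or more the median was -0.31 and 14 fell. No member under 45% GC fell and none at 50% or more rose, in limma, at an unadjusted p under 0.05 or in edgeR (0 in each).

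Other protein-coding genes followed the same order, with smaller medians at both ends. Their median log2 fold changes over the same 5 bins were 0.36, 0.24, 0.12, -0.04 and -0.23. Under 40% GC, 267 of 561 other genes rose (47.6%), against 51.0% of the members. Between 40% and 45%, 38.4% of other genes and 53.5% of the members rose, and between 45% and 50%, 17.8% and 13.0%. Between 50% and 55%, 9.26% and 6.90% fell. At 55% or more 1563 of 3999 other genes fell (39.1%), against 42.4% of the members. After the GC and length correction, 2.85%, 4.83% and 4.09% of other genes rose in the bins under 50%, against 2.04%, 18.6% and 4.35% of the members. As a description, the correlation of fold change with GC content was r = -0.71 (Spearman's rho -0.75) over 176 members, and rho was -0.64 over 14932 protein-coding genes. The members' corrected fold changes still ran with GC content, at r = -0.30 (rho -0.36). These are correlations across genes that share the same 6 libraries, and genes are not independent replicates. In the deposited values, r was -0.46 within the KRAB class (n = 106) and -0.79 within the class without KRAB (n = 70).

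**Figure D2:**
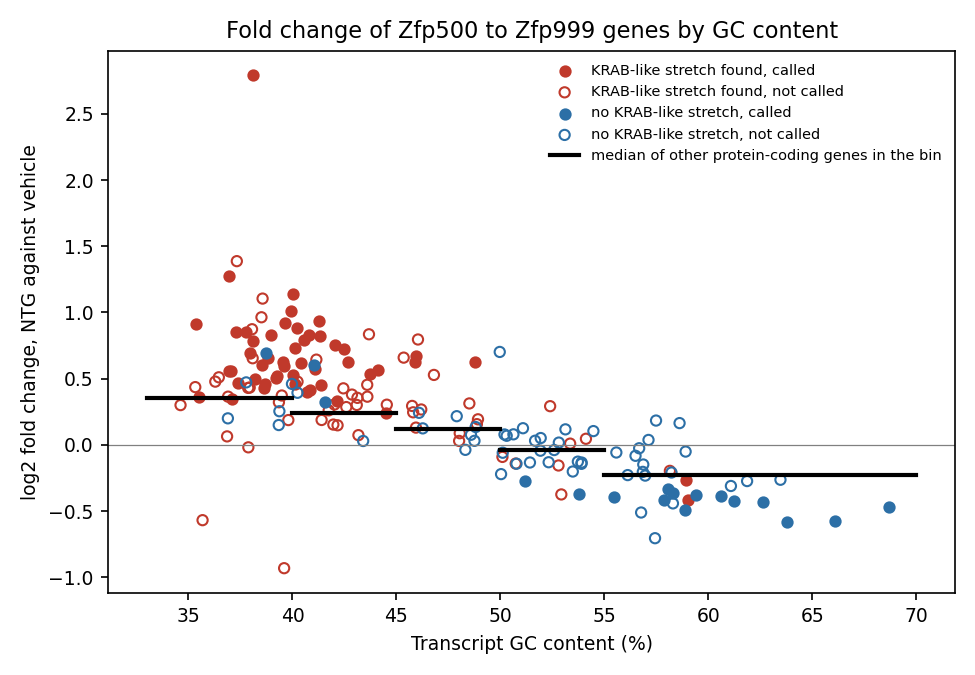
Log2 fold change of NTG against vehicle (y axis) by GC content of the longest coding transcript in percent (x axis), 1 point per member, red with and blue without a KRAB-like stretch, filled where called by limma. Black bars give the median of other protein-coding genes in 5 GC bins, and filled points lie above 0 at the low-GC end and below 0 at the high-GC end.

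With the GC and length trend removed in each library, 11 of 177 members rose and 4 fell, where 3.89% of all genes rose and 5.54% fell. The family's median log2 fold change was then 0.09. In the KRAB class 9 of 106 rose and none fell in limma (1 at an unadjusted p under 0.05), with a median of 0.16 and 84 members above 0. In the class without KRAB 2 of 70 rose and 4 fell, with a median of -0.02. Of the 11 members risen after the correction, 10 had risen in the deposited values (the other was Zfp768), and of the 4 fallen, Zfp516 and Zfp622 had fallen there. The number risen moved between 4 and 20 when 1 library was left out: it was 20 without vehicle replicate 3, 7 without NTG replicate 3 and 4 without either of NTG replicates 1 and 2.

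Among KRAB members, the largest rises on the rule used here (called, no overlap between groups, a mean of at least 1 CPM) were those of Zfp953, Zfp850, Zfp709, Zfp931, Zfp995, Zfp991, Zfp933 and Zfp712. That rule fixed the absence of overlap in these members and in the 8 falls below. Little is known of most of the risen members beyond their KRAB and finger domains. All values that follow are normalised reads in the 3 vehicle libraries and then the 3 NTG libraries. Zfp953 (chr13:67339309-67360572, GRCm38) had 6.54, 14.4 and 22.0 in vehicle and 36.7, 36.3 and 26.0 in NTG (log2 fold change 1.27 ± 0.43 (SE), adjusted p = 0.0317). It was the lowest of the 8, and its adjusted p was 0.107 without vehicle replicate 1, 0.0518 without vehicle replicate 2, 0.126 without NTG replicate 1 and 0.132 without NTG replicate 2. Its locus also overlaps Zfp595 on the same strand, so the reads of this pair could have been split by the authors' counting.

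Zfp850 (chr7:27984471-28014210) measured 45.8, 53.5 and 60.6 in vehicle and 138, 107 and 112 in NTG (log2 fold change 1.14 ± 0.21 (SE), adjusted p = 0.00044). Each NTG library was well above the highest vehicle library, and after the GC and length correction its fold change was 0.84 (adjusted p = 0.00961). Zfp709 (chr8:71882068-71892565) read 37.0, 38.1 and 69.4 in vehicle and 96.4, 90.7 and 95.4 in NTG (log2 fold change 1.01 ± 0.25 (SE), adjusted p = 0.00471). Vehicle replicate 3 stood apart from the other two vehicle libraries for this gene, and all NTG values were above it, as the rule required. For Zfp931 (chr2:178066446-178078425) the values were 50.1, 41.2 and 39.7 in vehicle and 71.2, 94.9 and 87.6 in NTG (log2 fold change 0.94 ± 0.23 (SE), adjusted p = 0.00512). Zfp995, the member with the highest number (chr17:21878907-21910085), had 37.0, 42.2 and 44.1 in vehicle and 82.8, 71.5 and 81.5 in NTG (log2 fold change 0.92 ± 0.23 (SE), adjusted p = 0.00581), with every NTG library well above the vehicle libraries.

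Zfp991 (chr4:147132093-147180579) went from 47.9, 32.9 and 30.8 in vehicle to 69.1, 76.8 and 63.3 in NTG (log2 fold change 0.91 ± 0.26 (SE), adjusted p = 0.0123). Its measurement is uncertain, since 73.8% of its 100-base transcript windows also occur in another gene and it overlaps Zfp978 on the same strand, and its adjusted p was 0.0783 without NTG replicate 2. Zfp933 had 109, 101 and 132 in vehicle and 266, 189 and 185 in NTG (log2 fold change 0.89 ± 0.17 (SE), adjusted p = 0.000697). The NTG replicate 1 value was the highest, and the corrected fold change was 0.59 (adjusted p = 0.0189). Zfp712 had 54.5, 46.3 and 59.5 in vehicle and 88.0, 103 and 99.7 in NTG (log2 fold change 0.85 ± 0.21 (SE), adjusted p = 0.00515). After the GC and length correction, 2 of these 8 members remained called, Zfp850 and Zfp933. The corrected adjusted p of Zfp850 was 0.0848 without NTG replicate 1, and that of Zfp933 was 0.0663 without vehicle replicate 2, 0.186 without NTG replicate 1 and 0.0503 without NTG replicate 2.

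**Figure D3:**
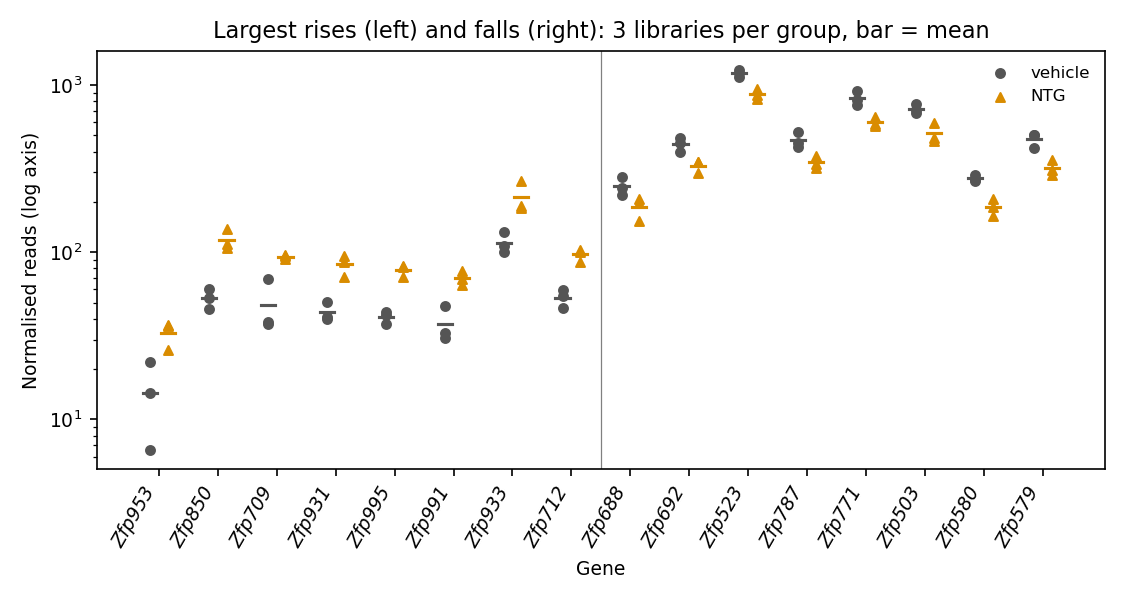
Normalised reads on a log axis for the 8 largest rises (left of the line) and the 8 largest falls (right), with 3 vehicle libraries (grey circles), 3 NTG libraries (orange triangles) and a bar at each group mean. The groups do not overlap in any of the 16 genes, by the rule that chose them, and the genes that rose lie at lower levels than most of those that fell.

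The 8 largest falls were of Zfp579, Zfp580, Zfp503, Zfp771, Zfp787, Zfp523, Zfp692 and Zfp688, 7 of them without KRAB. Zfp579 (chr7:4992852-4996101) had 423, 502 and 503 in vehicle and 311, 290.1 and 354 in NTG (log2 fold change -0.58 ± 0.11 (SE), adjusted p = 0.000584). Its neighbour Zfp580 (chr7:5038519-5053723) read 267, 291 and 272 in vehicle and 188, 164 and 208 in NTG (log2 fold change -0.57 ± 0.13 (SE), adjusted p = 0.00263). Both genes were lower in every NTG library, as the rule required, and their transcripts are 63.8% and 66.1% GC. Zfp503, a transcriptional repressor of developing neural and limb tissue, measured 706, 681 and 772 in vehicle and 484, 463 and 594 in NTG (log2 fold change -0.49 ± 0.10 (SE), adjusted p = 0.00085). In Zfp771 (chr7:127242996-127254872) the values were 922, 810.0 and 761 in vehicle and 569.9, 586 and 642 in NTG (log2 fold change -0.47 ± 0.09 (SE), adjusted p = 0.000534). Its transcript is 68.7% GC, and of these 8 it shifted most on correction, to 0.10 (adjusted p = 0.637), which turns its direction.

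Zfp787 had 451, 428 and 523 in vehicle and 337, 321 and 378 in NTG (log2 fold change -0.43 ± 0.11 (SE), adjusted p = 0.00479). For Zfp523, a relative of the promoter-binding factor Zfp143, the values were 1172, 1124 and 1234 in vehicle and 820.3, 877 and 942 in NTG (log2 fold change -0.42 ± 0.07 (SE), adjusted p = 0.000359). It was the highest in level of the 8 falls, and the groups lay far apart relative to their spread. Zfp692 gave 396, 482 and 447 in vehicle and 299, 344 and 347 in NTG (log2 fold change -0.42 ± 0.11 (SE), adjusted p = 0.00679), and it overlaps Zfp672 on the opposite strand. Zfp688, the KRAB member whose box is printed above, went from 219, 243 and 281 in vehicle to 153, 196 and 209 in NTG (log2 fold change -0.42 ± 0.15 (SE), adjusted p = 0.0401), and its adjusted p was 0.0801, 0.135, 0.238 and 0.0691 without vehicle replicate 2, vehicle replicate 3, NTG replicate 1 and NTG replicate 2. None of these 8 was called after the GC and length correction.

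The members called after that correction ranged widely in level. Zfp970 (chr2:177464742-177479194) had 324, 268 and 282 in vehicle and 512, 574 and 472 in NTG, with a log2 fold change of 0.83 in the deposited values and 0.55 after correction (adjusted p = 0.000786). Zfp941 (chr7:140807453-140822201) had 243, 290.3 and 232 in vehicle and 432, 420.2 and 369 in NTG, with 0.67 before and 0.52 after (adjusted p = 0.00352). Both are KRAB members, and both stayed called after correction whichever library was left out, as did Zfp638 and Zfp516. Zfp871, the most highly expressed of the KRAB members in this group, measured 1307, 1346 and 1416 in vehicle and 2084, 1975 and 1823 in NTG, and its fold change went from 0.53 to 0.21 on correction (adjusted p = 0.0238). The other KRAB members risen after correction were Zfp719, Zfp738, Zfp869 and Zfp971, at corrected log2 fold changes of 0.48, 0.47, 0.32 and 0.33. Of the 15 corrected calls, those of Zfp622, Zfp706, Zfp738, Zfp768, Zfp871 and Zfp971 passed in 1 or 2 of the 6 fits that leave out a library, those of Zfp719, Zfp827, Zfp869 and Zfp933 in 3, and that of Zfp850 in 5.

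Several members without KRAB have well-described roles. Zfp638 (NP220), an RNA- and DNA-binding protein that takes part in silencing unintegrated retroviral DNA, had 1194, 1216 and 1325 in vehicle and 2048, 1873 and 1755 in NTG (log2 fold change 0.60 ± 0.07 (SE), adjusted p = 8.19e-06). It had the smallest adjusted p of the family, and its corrected fold change was 0.33 (adjusted p = 0.000886). Zfp644, a partner of the histone methyltransferases G9a and GLP, read 891, 729.8 and 816 in vehicle and 1086, 1015 and 948 in NTG (log2 fold change 0.33 ± 0.08 (SE), adjusted p = 0.00635), and 0.07 after correction (adjusted p = 0.67). Zfp516, a regulator of brown fat genes, measured 1536, 1414 and 1538 in vehicle and 1098, 1184 and 1196 in NTG (log2 fold change -0.37 ± 0.07 (SE), adjusted p = 0.000524). Its corrected fold change stayed near that, at -0.29 (adjusted p = 0.00585). Zfp598, a ubiquitin ligase that senses collided ribosomes, had 993, 1000 and 983 in vehicle and 711, 796 and 781 in NTG (log2 fold change -0.38 ± 0.07 (SE), adjusted p = 0.000851). Zfp703, a relative of Zfp503, had 946, 1341 and 1254 in vehicle and 835, 850.0 and 997 in NTG (log2 fold change -0.39 ± 0.12 (SE), adjusted p = 0.0316), and its adjusted p was 0.0911, 0.119, 0.119 and 0.108 without vehicle replicate 2, vehicle replicate 3, NTG replicate 1 and NTG replicate 2. After correction Zfp598 (-0.11) and Zfp703 (-0.08) were not called.

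KRAB repressors with described retroviral or imprinted targets include Zfp809, Zfp932, Zfp961, Zfp568 and Zfp708. The pattern search used here found no KRAB-like stretch in Zfp708, which is therefore counted among the members without KRAB. Zfp932 had 151, 192 and 214 in vehicle and 279.7, 285 and 274 in NTG (log2 fold change 0.60 ± 0.14 (SE), adjusted p = 0.00281), with 26.9% of its windows shared with other genes. Zfp809, which recognises the primer binding site of murine leukaemia virus, had 194, 164 and 207 in vehicle and 217, 238 and 236 in NTG and was not called (log2 fold change 0.29 ± 0.13 (SE), adjusted p = 0.117). Its NTG values were all above its vehicle values. Zfp961, which binds the primer site used by another class of retroviral elements, had 75.2, 63.8 and 93.6 in vehicle and 93.2, 83.2 and 110.1 in NTG (log2 fold change 0.31, not called), with overlapping groups. Zfp568, the repressor of a placental Igf2 transcript, had 119.9, 183 and 124 in vehicle and 109, 129 and 145 in NTG (log2 fold change -0.14, not called). For Zfp708 the values were 66.5, 21.6 and 62.8 in vehicle and 72.3, 69.3 and 49.4 in NTG (log2 fold change 0.47, not called), and all of its windows (100%) occur in another gene.

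Other members with a textbook role were not called in the deposited values. Zfp521, a factor of neural progenitor commitment, had 1089, 963 and 1095 in vehicle and 1021, 1038 and 958 in NTG (log2 fold change -0.06). Zfp536, a repressor of neuronal differentiation, had 706, 736 and 806 in vehicle and 645, 662 and 642 in NTG (log2 fold change -0.20, adjusted p = 0.0698 in limma). The NTG values of Zfp536 were all below its vehicle values and those of Zfp521 were not. Zfp592 and Zfp687, which sit together in a chromatin complex with ZMYND8, had log2 fold changes of 0.05 and -0.08. Zfp608, Zfp609 and Zfp704 were at 0.14, -0.13 and -0.04.

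Per kilobase of transcript, the highest levels belonged to members without KRAB. Zfp740 averaged 1718 normalised reads per kilobase, Zfp664 790 and Zfp706 575, followed by Zfp771 at 482, Zfp622 at 412 and Zfp523 at 359. The median was 38.9 for members with KRAB and 110 for those without. Zfp664 had 3194, 3228 and 3170 in vehicle and 3266, 3345 and 3190 in NTG (log2 fold change 0.03 ± 0.05). Zfp740 had 1582, 1711 and 1750 in vehicle and 1707, 1734 and 1710 in NTG (log2 fold change 0.03 ± 0.06). In both genes the groups overlapped and neither was called. Zfp622, which acts in the maturation of the large ribosomal subunit, had 1194, 1273 and 1316 in vehicle and 983, 1008 and 1155 in NTG (log2 fold change -0.27 ± 0.08 (SE), adjusted p = 0.0116), and its adjusted p was 0.0679 without NTG replicate 1 and 0.0668 without NTG replicate 2. Zfp706 was not called in the deposited values (log2 fold change 0.03) and stood at -0.19 after correction (adjusted p = 0.0498).

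Members lay on 20 chromosomes, with 48 on chromosome 7, 25 on chromosome 17, 16 on chromosome 8 and 11 each on chromosomes 9 and 13. Joining neighbours whose starts lay within 500 kb gave 18 clusters of at least 3 members, with 93 members in all. The 3 clusters described below are the 2 largest and 1 of the 2 that tie for the next place. Of the clustered members 34 rose and 7 fell (median log2 fold change 0.36). Of the 85 others 17 rose and 9 fell (median 0.13), where 12.3% of all genes tested rose and 13.5% fell. KRAB genes were unevenly placed, with 72 of the 93 clustered members in that class and 34 of the others. Within the KRAB class the median was 0.45 inside clusters and 0.52 outside them.

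The largest cluster, at chr17:21383707-22867309, held 14 members, all with KRAB and with a median transcript GC content of 38.0%. Of these, 9 rose (Zfp995, Zfp994, Zfp946, Zfp943, Zfp760, Zfp942, Zfp944, Zfp948 and Zfp945), where 12.3% of all genes tested rose. Their log2 fold changes ran from 0.36 to 0.92. None of the 14 fell in limma, at an unadjusted p under 0.05 or in edgeR (0 in each). The median over the 14 was 0.48. Inside the interval, 7 other protein-coding genes were tested, of which 2 rose and 0 fell in limma, with a median of 0.53. Zfp946 had 171, 207 and 174 in vehicle and 261, 288 and 264 in NTG, and Zfp943 had 167, 169.8 and 155 in vehicle and 257, 222 and 246 in NTG. In both, every NTG library was above every vehicle library. The 5 members not called were Zfp677 (0.65), Zfp758 (0.44), Zfp947 (0.96), Zfp983 (0.19) and Zfp820 (-0.02). After the GC and length correction none of the 14 was called in limma (1 risen at an unadjusted p under 0.05) and the median was 0.14, with Zfp945 at -0.06 turned in direction. Calls in this cluster also rested on single libraries, since Zfp994 lost its call without NTG replicate 2 (adjusted p = 0.0574), and Zfp942, Zfp944, Zfp945 and Zfp948 each lost theirs in 4 of the 6 fits without a library, at adjusted p from 0.0539 to 0.197.

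The cluster at chr13:67038594-67683512 held 7 members with a median GC content of 37.8%, 5 of them with KRAB. In it Zfp953, Zfp712, Zfp595, Zfp738, Zfp748 and Zfp759 rose and Zfp708 was not called, with a median log2 fold change of 0.83. Inside the interval, 13 other protein-coding genes were tested, of which 5 rose, with a median of 0.53, where 12.3% of all genes tested rose. Of the other protein-coding genes there, tested or not, 13 encode at least 3 C2H2 fingers. Zfp738 had 173, 168 and 133 in vehicle and 294, 287 and 262 in NTG (log2 fold change 0.83 ± 0.14 (SE), adjusted p = 0.000182), and 0.47 after correction (adjusted p = 0.0281). For Zfp748 the values were 117, 104 and 137 in vehicle and 199, 222 and 173 in NTG (log2 fold change 0.73 ± 0.16 (SE), adjusted p = 0.00206). These 2 were the most highly expressed genes of the cluster, and their groups did not overlap. Zfp595 had 40.3, 31.9 and 24.2 in vehicle and 70.2, 53.3 and 51.2 in NTG (log2 fold change 0.85), and lost its call in 5 of the 6 fits without a library, at up to 0.17 without NTG replicate 1. Zfp759 had 53.4, 51.5 and 55.1 in vehicle and 83.8, 93.9 and 83.2 in NTG (log2 fold change 0.69), with an adjusted p of 0.0615 without NTG replicate 1 and 0.109 without NTG replicate 2. The corrected median of the cluster was 0.47, the largest among the 3 clusters described here, and Zfp738 was its 1 corrected call. The cluster of equal size, at chr17:32765496-33110707, held 7 members, all with KRAB, of which 2 rose (Zfp871 and Zfp763), with a median of 0.37 in the deposited values and 0.11 after correction.

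The cluster at chr7:127233061-127885996 held 10 members at a median GC content of 53.8%, 4 of them with KRAB and a median log2 fold change of -0.14. Zfp771 and Zfp688 fell (20% of the members, where 13.5% of all genes fell, and Zfp688 lost its call in 4 of the 6 fits without a library), and none rose in limma, at an unadjusted p under 0.05 or in edgeR (0 in each). The 20 other protein-coding genes tested inside the interval had a median of -0.13, with 4 fallen. The other members ranged from -0.21 (Zfp553) to 0.29 (Zfp764). Its 4 KRAB members were Zfp688 (-0.42), Zfp747 (-0.16), Zfp689 (0.01) and Zfp764, all below the medians of the clusters on chromosomes 13 and 17. Zfp768, without KRAB, had 226, 257 and 225 in vehicle and 261, 249.6 and 283 in NTG (log2 fold change 0.16, not called), with overlapping groups, and was called after correction (0.41, adjusted p = 0.0284). Zfp629, Zfp646 and Zfp668 lay between -0.14 and -0.13.

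**Figure D4:**
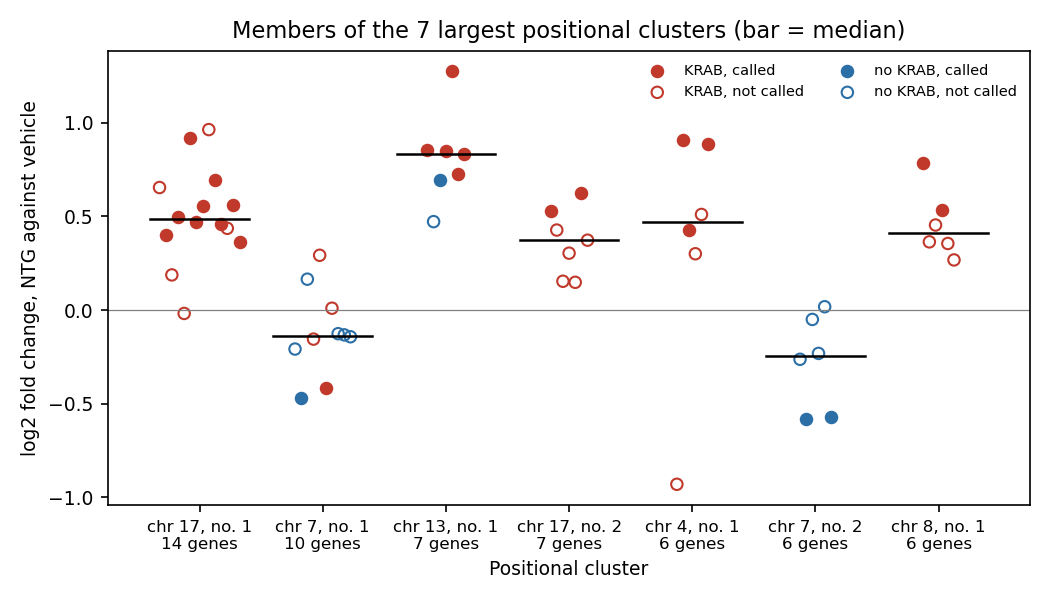
Log2 fold change of NTG against vehicle for each member of the 7 largest positional clusters, labelled by chromosome and ordered by number of genes, red with and blue without a KRAB-like stretch, filled where called by limma, with a bar at the cluster median. The first chromosome 17 and the chromosome 13 clusters have medians of 0.48 and 0.83, and both chromosome 7 clusters have medians below 0.

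The number of fingers and the number in the symbol ran alongside the KRAB class. With 15 or more fingers 21 of 36 members rose and 1 fell, with 10 to 14 fingers 19 of 63 rose and 2 fell, with 4 to 9 fingers 9 of 54 rose and 7 fell, and with up to 3 fingers 2 of 23 rose and 6 fell. Over all genes tested, 12.3% rose and 13.5% fell. The counts of risen members after the GC and length correction were 3, 6, 1 and 1 in that order, where 3.89% of all genes rose. Among members with at least 10 fingers, 39 of 76 rose with KRAB and 1 of 23 without. Their median transcript GC content was 40.2% with KRAB and 53.8% without, and after correction 8 of 76 and 1 of 23 rose. By number, 9 of 71 members from Zfp500 to Zfp699 rose and 11 fell. From Zfp700 to Zfp899 the counts were 19 and 5 of 61. From Zfp900 to Zfp999 23 of 46 rose and none fell (0 in limma, at an unadjusted p under 0.05 and in edgeR), and 44 of these 46 have KRAB. Their median transcript GC content was 38.8%. The corrected counts of risen members in these number ranges were 1 of 70, 6 of 61 and 4 of 46.

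Zinc finger genes outside the number range were set beside the members. The 158 protein-coding Zfp genes numbered under 500 had a median log2 fold change of 0.25, with 39 risen and 5 fallen, where the members had 0.26. The 69 of them with KRAB had a median of 0.34, against 0.46 in the members with KRAB. The 88 without KRAB had a median of 0.15, against -0.06 in the members without KRAB. With the GC and length trend removed, the median was 0.12 in the 158 genes and 0.09 in the members. The corrected medians with KRAB were 0.14 in the 69 genes and 0.16 in the members. Those without KRAB were 0.09 in the 88 genes and -0.02 in the members. Among 229 other genes encoding at least 3 C2H2 fingers the median was 0.12. The 2426 other protein-coding genes tested within the GC interquartile range of the KRAB members had a median of 0.26. Of them 41.1% rose, where 45.3% of all 106 KRAB members did, inside that range or not. The sets differed in composition, with a median GC content of 42.3% over the 2447 such genes, tested or not, and 40.8% over the KRAB members. After correction the median was 0.01 in those genes and 0.16 in the KRAB members. The correction subtracts a trend fitted over all genes, so it brings the median of a large set of any GC content near 0. None of these differences was tested, since the members were chosen with results known.

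The co-repressor machinery that KRAB proteins recruit was given by a list of 32 genes, of which 30 were measured. Of these, 9 rose and 3 fell, where 12.3% of all genes rose and 13.5% fell, with a median log2 fold change of 0.04. After the GC and length correction 2 rose and 4 fell. Trim28, the KRAB co-repressor itself, fell from 1821, 2036 and 2198 in vehicle to 1607, 1605 and 1650 in NTG (log2 fold change -0.31 ± 0.07 (SE), adjusted p = 0.00214). Its groups did not overlap, and the corrected fold change was -0.03 (adjusted p = 0.804). Cbx5, which encodes heterochromatin protein 1 alpha, had 2511, 2308 and 2242 in vehicle and 3242, 3055 and 2755 in NTG (log2 fold change 0.36 ± 0.07 (SE), adjusted p = 0.000534). Pias1, a SUMO ligase, had 737, 624 and 628 in vehicle and 889, 937 and 872 in NTG (log2 fold change 0.44 ± 0.08 (SE), adjusted p = 0.000543). Atrx, a chromatin remodeller that deposits histone H3.3 with Daxx, had 1205, 1130 and 1207 in vehicle and 1897, 1529 and 1414 in NTG (log2 fold change 0.44 ± 0.09 (SE), adjusted p = 0.00119). Each of these 3 was higher in every NTG library, and after correction none was called (0.11, 0.20 and 0.10). Trim28 and these 3 were chosen for the 4 smallest p of the list, which favours groups that do not overlap. Of all 17524 genes, 3446 had every NTG value above every vehicle value and 3494 had every NTG value below.

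Setdb1, the methyltransferase recruited by Trim28, was chosen after its values were seen, with 724, 614 and 687 in vehicle and 845, 803 and 867 in NTG (log2 fold change 0.31 ± 0.08 (SE), adjusted p = 0.00724). It remained called after correction (0.25, adjusted p = 0.0438). After correction, Cbx3, Mphosph8, Trim33 and Pias2 of the list fell. Calls of Atf7ip, Chd4 and Smarcad1 in the deposited values were lost without 1 or more libraries, at adjusted p of 0.0583, 0.165, 0.0807 and 0.056 for Atf7ip (NTG replicates 1 and 2, vehicle replicates 1 and 3), 0.0895 and 0.0746 for Chd4 (NTG replicate 2, vehicle replicate 3) and up to 0.15 for Smarcad1 (NTG replicate 1).

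Some members are hard to measure. The largest fold change of the family, chosen here after its value was seen, was that of Zfp781 at 2.79 (3.27, 0.00 and 1.10 in vehicle, 11.5, 17.1 and 12.1 in NTG, adjusted p = 0.0127 in limma). It averaged under 1 CPM, 92.4% of its transcript windows occur in another gene, and its adjusted p was 0.0502, 0.106 and 0.0565 without NTG replicates 1, 2 and 3. In all, 14 members shared at least 20% of their windows with another gene and 10 averaged under 1 CPM. For Zfp935, 1 of these 14, the other gene was a separate annotation entry of the same symbol (59.5% of windows). Without those 14, 46 members rose and 16 fell. Overlap with another listed gene applied to 42 members, of which 7 rose and 7 fell, and without them 44 of 136 rose and 9 fell. At the edges of the name rule, Zfp503 and Zfp995 were the lowest and highest numbers inside it. Zfp493, just outside, had a log2 fold change of 0.85, and Zfp783, left out as a long non-coding gene, had 79.5, 104 and 101 in vehicle and 110.0, 82.1 and 92.8 in NTG.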

How the data were processed

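Poly-A-selected, strand-specific RNA libraries from trigeminal ganglion were sequenced in paired ends, per the labels' protocols; the submitters' processing notes name FastQC, HISAT2 and the GRCm38 build. How reads were counted, with or without strand, and how counts were normalised is not given in the sources used here. The deposited table holds a signal, gene counts divided by a size factor by the authors. Dividing by the value of 1 read (0.867 to 1.10) gave whole reads for 100% of values at a tolerance of 0.01, 18813027 to 23774244 per library; 3 reads correspond to 0.126 to 0.159 CPM, counting error only.

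Members and lists were chosen with earlier results of these data known. The main fit was limma 3.58.1 (trend, robust) on log2(value + 1), two-sided, over the 17475 genes that reached 1 in 3 or more libraries. P-values were adjusted by the Benjamini-Hochberg method and called under 0.05. On this log scale the change of low genes is understated. Recovered reads were also fitted with edgeR 4.0.16, which called 2227 risen and 2317 fallen genes, and DESeq2 1.42.0. For the GC and length correction, each library's smooth dependence on the GC content and log2 length of transcripts was subtracted (mgcv 1.9.3), for the 16278 tested genes with a transcript. The trend is fitted within libraries whose slopes differ between the groups, so it also removes any treatment difference that runs with GC content. Fits were tested on simulated data.

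Transcripts were the longest coding ones of GENCODE M21, matched for 93.2% of genes. Fingers and KRAB stretches were searched in translated GENCODE coding sequences, in place of the RefSeq proteins that had been planned. Named members were the 8 largest rises and falls (called, groups not overlapping, at least 1 CPM), the 6 highest per kilobase, all members of the 3 largest clusters (2 clusters of 7 tied for the last place, of which the one on chromosome 13 is described member by member), members with a textbook role, and the edges of the rule; of the co-repressor list, the 4 smallest p. Members called under a setting and named outside this rule (among them Zfp719, Zfp777, Zfp869, Zfp941, Zfp970 and Zfp971) were chosen after their values were seen. Vehicle and NTG libraries share replicate numbers, but libraries of the same number did not deviate together, so no block was used. One result of the co-repressor list is not reported here.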

Additional observations from a re-analysis of the deposited data

How the results depend on the processing

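Counts of calls moved by more than 1.5 times under a required fold, the joint GC and length correction and the stricter KRAB pattern. Risen members moved as far without NTG replicate 1 or 2, and risen genes of the whole table without NTG replicate 2. Some smaller counts of fallen members did so in DESeq2, without overlapping members or without single libraries. GC content alone was not removed. With a minimum fold of 1.2, 7 members rose and 0 fell (limma; 5 at an unadjusted p under 0.05), 6 and 0 with KRAB and 1 and 0 without, and 77 and 236 genes of the whole table. With the GC and length trend removed, 11 rose and 4 fell with a median of 0.091; in the KRAB class 9 and 0 with a median of 0.16, in the class without KRAB 4 fell, and of all genes 634 rose and 901 fell. That correction with the replicate block gave 13 and 6 (median 0.091), 10 and 0 with KRAB (median 0.16), 6 fallen without KRAB, and 900 and 1202 of all genes. It turned Zfp706 (-0.19), Zfp771 (0.10) and Zfp945 (-0.062), with and without the block. The stricter KRAB pattern kept 23 members, of which 11 rose and 0 fell, and left 40 risen in the class without KRAB, whose median turned to 0.19. DESeq2 called 1 fallen KRAB member, and without overlapping members 9 fell with a median of 0.32. edgeR called 49 and 16 members. The replicate block alone gave 57 and 19; libraries of the same number correlated at 0.00, -0.03 and -0.02 in their deviations, so they share only a number. Without 1 library, 28 to 53 members rose and 11 to 22 fell (median 0.22 to 0.27), 26 to 50 and 0 to 2 with KRAB, 2 to 4 and 11 to 20 without, and 1326 to 2256 genes of the whole table rose. The lowest counts of risen members, 28 and 31, came without NTG replicates 2 and 1. After the correction, 4 to 20 members rose, 3 to 17 with KRAB (median 0.15 to 0.22). The cause of these shifts was not tested. At 3 reads per library the lowest members, under 1 CPM, are the least precise.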

Other observations

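Promoters, which the fits do not use, differed in composition along the same line as the transcripts. In RefSeq windows from 250 bases before to 50 bases after the gene start (GRCm38.p6), available here for 148 members, the median GC content was 52.7% in 94 members with KRAB, 61.7% in 52 without and 60.7% in 11894 other protein-coding genes. The median number of CpG pairs in the window was 10 with KRAB, 21.5 without and 20 in other genes. These are values of sequence only, and their relation to expression was not tested.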
